A study of Mus musculus with 18 samples.

Results

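The chemokine and cytokine genes Ccl2, Ccl7, Ccl5, Cxcl1, Cxcl5, Cxcl10, Cxcl12, Cxcl14, Il6 and Csf1 were described in cultured mouse brown adipocytes, as 10 of the 54347 genes listed in the count table. They were chosen by name, as secreted signals that adipocytes are known to make, and with earlier results of these data known. Shares of the 10 set beside all genes are thus descriptive. RNA sequencing covered 18 libraries in 6 groups of 3, carrying replicate numbers 2, 3 and 4. Each group combined 1 of 3 locked nucleic acid (LNA) antisense oligonucleotides with either no stimulation (basal) or isoproterenol, an agonist of β-adrenergic receptors. The 6 groups were ctrlA basal, ctrlA with isoproterenol, LNA1 basal, LNA1 with isoproterenol, LNA2 basal and LNA2 with isoproterenol, where ctrlA is a non-targeting LNA and LNA1 and LNA2 are directed at the long non-coding RNA Gm15551. LNAs were introduced with the reagent TransIT on day 4 of differentiation, as 1.4 µl of a 10 µM stock for 500000 cells. Isoproterenol was given at 1 µM for 24 h before harvest on day 7.

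All groups shared the cell line wt1-SAM. These are immortal precursors of brown fat cells in which the CRISPRa SAM machinery, used to switch on genes, is permanently present. They also shared a differentiation mix of rosiglitazone, T3, dexamethasone, insulin, indomethacine and IBMX, followed by medium with rosiglitazone and insulin and later rosiglitazone only. Dexamethasone is a glucocorticoid, indomethacine a cyclooxygenase inhibitor and IBMX a phosphodiesterase inhibitor, so every library came from cells that had met these agents. The design has 1 cell line, and the labels do not say whether replicates were separate cultures, so p-values measure the spread between these samples, which may be technical.

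Chemokines are small secreted proteins that bind G protein-coupled receptors and guide the movement of leukocytes. The CC chemokines Ccl2, Ccl7 and Ccl5 attract monocytes and T cells, Cxcl1 and Cxcl5 attract neutrophils through Cxcr2, Cxcl10 attracts activated T cells through Cxcr3, and Cxcl12 holds and guides cells that carry Cxcr4. Il6 is a cytokine that signals through the shared receptor subunit gp130, and Csf1 is the growth factor that keeps macrophages alive. In adipose tissue, preadipocytes and adipocytes are known sources of several of these proteins, and many of their genes are known targets of the transcription factor NF-κB.

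The 3 oligonucleotides are printed because they are what separates the LNA groups. They are written 5′ to 3′ with no part marked.
Negative control A: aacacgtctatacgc
LNA1: gatgactgagattaga
LNA2: aagtagcacggcgttg
LNA1 is complementary to exon 2 of Gm15551 at chr3:126667502-126667517, and LNA2 to the same exon at chr3:126667608-126667623 (GRCm38). None of the 30 annotated transcripts of the 10 genes held a full complementary site for any of the 3 oligonucleotides.

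Promoters are shown for Il6, which rose most on average over LNAs and numbers, the neutrophil chemokine with the tallest per-length level, and the gene that fell with isoproterenol. In replicate number 3 Cxcl5 rose more than Il6 (1.32 against 1.16 on the log2 scale). RefSeq entries of GRCm38.p6 matched 6 of the 10 genes (Cxcl1, Cxcl10, Cxcl12, Cxcl14, Il6 and Csf1). The 250 bases before the start site are printed 5′ to 3′ on the strand of the gene, which is the plus strand for all 3. Capitals mark matches, on either strand, to the NF-κB consensus, the CRE half-site TGACG, the AP-1 motif TGANTCA and the C/EBP motif TTGCNNAA.
Il6, chr5:30012864-30013113: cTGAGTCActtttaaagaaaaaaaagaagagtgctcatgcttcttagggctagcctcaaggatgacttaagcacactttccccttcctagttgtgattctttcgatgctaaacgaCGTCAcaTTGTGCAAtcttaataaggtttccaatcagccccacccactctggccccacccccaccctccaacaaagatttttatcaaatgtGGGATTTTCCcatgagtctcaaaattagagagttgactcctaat
Cxcl1, chr5:90890995-90891244: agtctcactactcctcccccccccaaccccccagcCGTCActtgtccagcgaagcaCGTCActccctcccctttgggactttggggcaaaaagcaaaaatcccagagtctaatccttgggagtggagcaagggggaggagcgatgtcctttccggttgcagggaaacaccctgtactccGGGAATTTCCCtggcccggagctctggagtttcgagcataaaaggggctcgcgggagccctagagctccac
Cxcl12, chr6:117168285-117168534: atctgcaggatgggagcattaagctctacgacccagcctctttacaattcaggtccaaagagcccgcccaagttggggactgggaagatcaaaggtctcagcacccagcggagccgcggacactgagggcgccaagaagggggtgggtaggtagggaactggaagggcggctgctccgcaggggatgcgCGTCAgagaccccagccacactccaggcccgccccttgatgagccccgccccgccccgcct
The Il6 window held 1 match to each of the 4 motifs. The Cxcl1 window held 2 NF-κB matches, which overlap on opposite strands, and 2 CRE half-sites. The Cxcl12 window held 1 CRE half-site and no match to the other motifs. Of the matched promoters not printed, that of Cxcl10 held 3 NF-κB matches, 2 of which overlap, and 1 AP-1 match. That of Csf1 held 1 NF-κB match, and that of Cxcl14 held none of the 4 motifs. Over 32851 promoter windows of the same length, the NF-κB consensus was present in 7.25%, the CRE half-site in 17.8%, the AP-1 motif in 6.75% and the C/EBP motif in 9.56%. These matches are letters in a sequence, and binding was not measured.

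Library totals ranged from 9167560 to 19723021 counts, so that 3 counts correspond to 0.17 to 0.306 CPM, the count scaled to the effective library size, and intervals read from them cover counting error only. The 6 libraries of replicate number 2 stood apart. An rRNA gene took 2.88 to 14.3% of their counts against 0.285 to 1.04% in the others, and the 37 mitochondrial genes took 7.86 to 9.79% against 2.56 to 4.97%. Gm15551 was read at 1 to 14 counts per library, with 42 counts over the 6 ctrlA libraries, 24 over LNA1 and 27 over LNA2. The knockdown was not larger than the spread, with log2 differences of -0.70 ± 0.59 (SE; exact permutation test within stimulation state, two-sided, p = 0.335) and -0.43 ± 0.57 (p = 0.5), where the smallest p allowed was 0.005. With same-number pairs kept together, exact sign flips gave p = 0.281 and 0.375, with Gm15551 lower in 4 of 6 pairs each (smallest p 0.0312). The study itself reports that both LNAs lowered Gm15551 robustly by day 7, relative to the control LNA. Adipocyte markers were abundant, and all 6 listed passed the filter on low counts. Of 7 leukocyte and lymphocyte markers only 1 passed, and Ptprc had 12 counts in all. Of 7 macrophage markers 3 passed, Cd68 with 4395 counts in all, Cd14 with 718 and Csf1r with 144, while Adgre1 had 4 counts and was at 0 in 15 of 18 libraries.

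With isoproterenol, Cxcl12 was lower in 9 of 9 same-number pairs of libraries, and Il6 and Cxcl5 were higher in 9 of 9. Cxcl1 and Ccl2 were higher in 8 of 9 pairs and Ccl7 in 7 of 9. Csf1, the most evenly expressed of the genes, and Cxcl10 showed no shared direction. The same direction in all 9 pairs was seen for 15.3% of all genes. A gene was called where edgeR's quasi-likelihood test gave a Benjamini-Hochberg adjusted p under 0.05 over all 14949 genes tested and the log2 fold change exceeded 0.5 in either direction. Ccl5 and Cxcl14 did not pass the filter, which left 8 genes in the test. A fit without the replicate number counts the spread between numbers as error. Its common dispersion, the shared measure of spread, was 0.0839, against 0.00941 with the number. A missing call in that fit therefore does not show that a gene stayed level. Without the replicate number in the model, 0 of these 8 were called against 3.20% of all genes, 4 had an unadjusted p under 0.05 (15.0% of all genes), and DESeq2 called 2, Cxcl12 and Il6 (4.21% of all genes). With the number as a block, 5 of 8 were called against 7.00% of all genes: Ccl7, Cxcl1, Cxcl5 and Il6 rose and Cxcl12 fell, where 3.87% of all genes rose and 3.13% fell. Within single LNAs 0 of 8 were called without the block (0.488% of all genes for ctrlA, 0.702% for LNA1 and 0.395% for LNA2), with 2, 1 and 0 of 8 at an unadjusted p under 0.05 (5.43%, 6.94% and 5.99% of all genes). DESeq2 called 0 of 8 in each, beside 171, 229 and 153 of all genes. With the block 4 of 8 were called within ctrlA (4.03%), 4 within LNA1 (5.04%) and 2 within LNA2 (4.25%). The counts of 5 and 4 with the block and of 2 by DESeq2 include Il6. So do the unadjusted counts over all LNAs and within ctrlA. Il6 reached the filter level of 0.774 CPM in 2 of 9 basal and 9 of 9 stimulated libraries, where 3 were needed. It thus entered the test only through the stimulated side and could be called only as higher. The median log2 fold change over the 8 was 0.57, beside 0.00 over all genes tested.

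**Figure D1:**
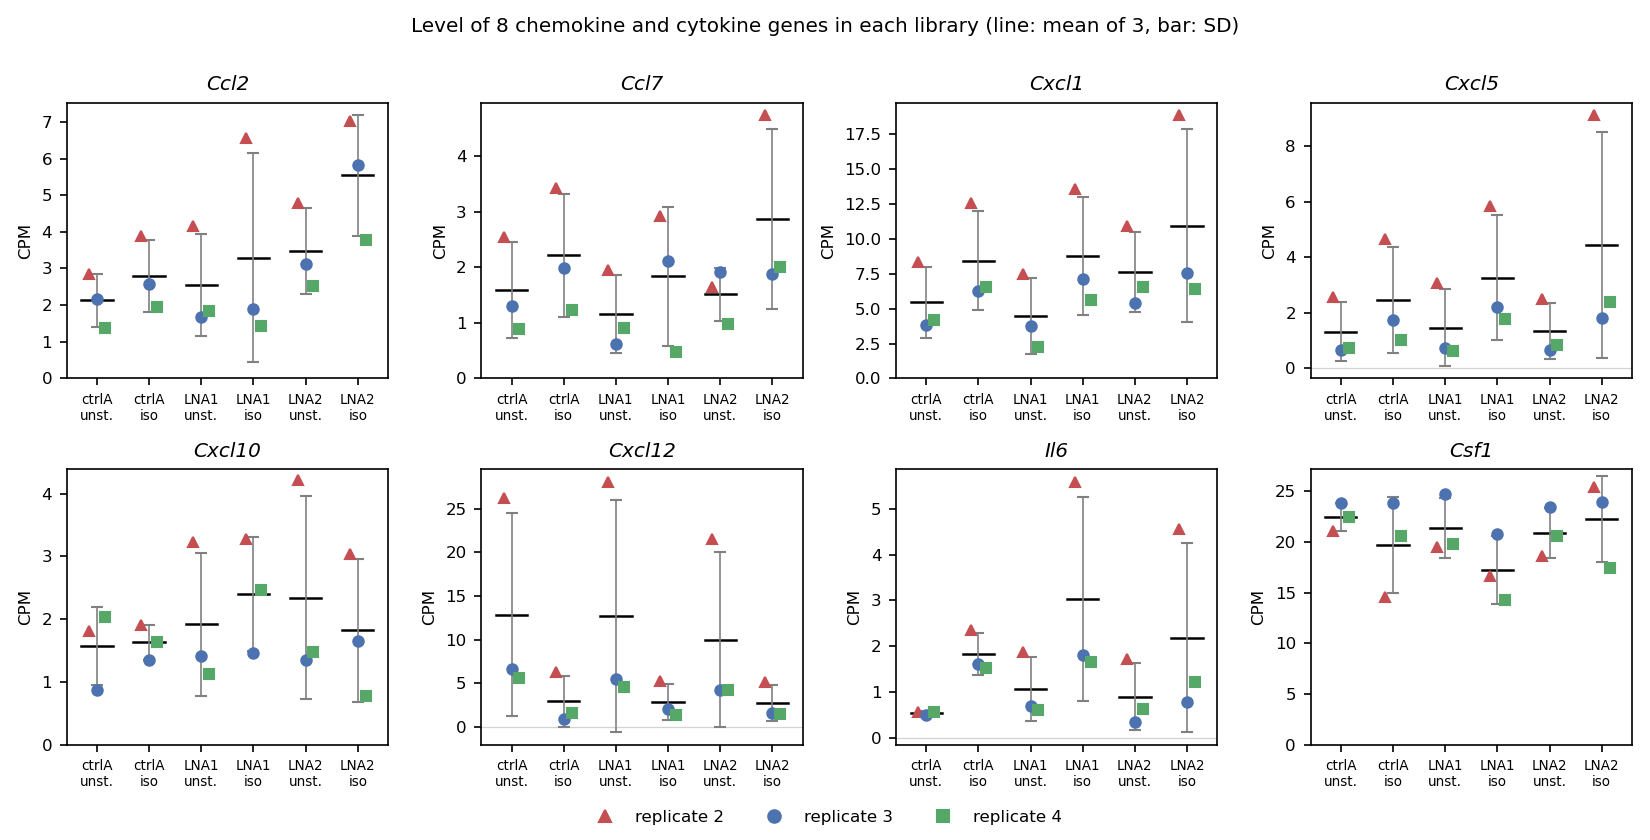
Level in CPM (linear axis) of the 8 genes that passed the filter, in the 3 libraries of each group of LNA and stimulation (unst., unstimulated, here called basal; iso, isoproterenol), with marker shape for the replicate number, a line for the mean of 3 and a bar for the SD. The Cxcl12 means are 12.8, 12.7 and 9.98 CPM in the basal groups and 2.95, 2.90 and 2.75 CPM in the stimulated ones, and replicate number 2 lies highest in 6 of 6 groups for Ccl2, Cxcl1, Cxcl5 and Cxcl12.

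Cxcl12 (ENSMUSG00000061353.11, chr6:117168535-117181367, plus strand, GRCm38) encodes the ligand of Cxcr4 and of the scavenging receptor Ackr3. With ctrlA, Cxcl12 read 26.3, 6.64 and 5.63 CPM in basal replicates 2, 3 and 4, and 6.31, 0.901 and 1.63 CPM in the stimulated ones. With LNA1 it read 28.1, 5.5 and 4.58 CPM at baseline and 5.235, 2.04 and 1.43 CPM with isoproterenol. With LNA2 it read 21.6, 4.18 and 4.2 CPM at baseline and 5.13, 1.65 and 1.46 CPM with isoproterenol. Within every replicate number each stimulated library was the lower one, but the stimulated libraries of number 2 were about as high as the basal libraries of numbers 3 and 4, so the groups overlapped. The log2 fold change was -2.05 ± 0.56 (SE, 9 against 9 libraries, adjusted p = 0.0526) without the block and -1.96 ± 0.12 (adjusted p = 8.26e-09) with it. Within numbers 2, 3 and 4 the mean log2 difference was -2.15, -1.77 and -1.57. Without the 6 libraries of number 2 it was -1.77 (adjusted p = 9.83e-05). The fit without the block also called Cxcl12 when 1 of 4 single libraries was left out (stimulated ctrlA replicate 2, basal LNA1 replicate 4, stimulated LNA1 replicate 2 or stimulated LNA2 replicate 2), at -2.18 to -2.46 on the log2 scale. The fall was called with the block under each LNA, at -2.19 for ctrlA, -1.95 for LNA1 and -1.73 for LNA2.

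Il6 (ENSMUSG00000025746.11, chr5:30013114-30019981, plus strand) had few reads, from 5 to 63 counts per library, and its entry into the test through the stimulated libraries fixed the side on which a call could fall. With ctrlA, Il6 read 0.567, 0.505 and 0.571 CPM at baseline and 2.36, 1.61 and 1.53 CPM with isoproterenol. With LNA1 it read 1.87, 0.710 and 0.610 CPM at baseline and 5.59, 1.82 and 1.67 CPM with isoproterenol. With LNA2 it read 1.735, 0.354 and 0.630 CPM at baseline and 4.56, 0.786 and 1.23 CPM with isoproterenol. All 3 stimulated ctrlA libraries lay above all 3 basal ones, whereas under LNA1 and LNA2 the basal library of number 2 exceeded at least 1 stimulated library. The log2 fold change over the 3 LNAs was 1.49 ± 0.41 (SE, adjusted p = 0.0534) without the block and 1.48 ± 0.23 (adjusted p = 0.000151) with it. By number it was 1.54, 1.16 and 1.09, and without number 2 it was 1.31 (adjusted p = 0.00702). With no filter on low counts and no block, Il6 was called at 1.497 on the log2 scale (adjusted p = 0.0195). The fit without the block called Il6 when basal LNA1 replicate 2, basal LNA2 replicate 2 or stimulated LNA2 replicate 3 was left out, at 1.63 to 1.78.

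Under ctrlA the rise of Il6 with the block was 1.79 (adjusted p = 0.0135), and the call was lost without basal ctrlA replicate 2 (1.21, adjusted p = 0.147) or stimulated ctrlA replicate 3 (1.52, adjusted p = 0.0798). Under LNA1 it was 1.46 (adjusted p = 0.0222), and was lost when basal LNA1 replicate 2, 3 or 4 or stimulated LNA1 replicate 2 or 3 was left out (1.30 to 1.51). Under LNA2 it was 1.19 and not called (adjusted p = 0.0683). With the block and number 2 left out both calls were lost, at 1.54 under ctrlA (adjusted p = 0.112) and 1.37 under LNA1 (adjusted p = 0.129).

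Cxcl5 and Cxcl1 are the neutrophil-attracting members, and they lie 129.6 kb apart on chromosome 5. Cxcl5 (ENSMUSG00000029371.7, chr5:90759360-90761624, plus strand) with ctrlA read 2.55, 0.649 and 0.734 CPM at baseline and 4.635, 1.74 and 1.02 CPM with isoproterenol. With LNA1 the values were 3.06, 0.710 and 0.610 CPM and then 5.86, 2.18 and 1.75 CPM. With LNA2 they were 2.48, 0.638 and 0.840 CPM and then 9.11, 1.81 and 2.38 CPM. The stimulated library was higher in each pair, while the basal libraries of number 2 lay above the stimulated libraries of numbers 3 and 4. The log2 fold change was 1.25 ± 0.49 (SE, adjusted p = 0.207) without the block and 1.29 ± 0.15 (adjusted p = 7.04e-06) with it. By number it was 1.18, 1.32 and 1.02, and without number 2 it was 1.35 (adjusted p = 0.00393). With the block the rise was called under each LNA, at 0.95 for ctrlA, 1.26 for LNA1 and 1.66 for LNA2. For ctrlA the call was lost in 5 of the fits that left out a library, those without any basal ctrlA replicate or without stimulated ctrlA replicate 2 or 3 (0.75 to 1.01). With the block and number 2 left out all 3 calls were lost, at 1.01 for ctrlA (adjusted p = 0.343), 1.54 for LNA1 (adjusted p = 0.0909) and 1.49 for LNA2 (adjusted p = 0.0915).

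Cxcl1 (ENSMUSG00000029380.11, chr5:90891241-90893115, plus strand) with ctrlA read 8.34, 3.82 and 4.16 CPM at baseline and 12.5, 6.24 and 6.53 CPM with isoproterenol. With LNA1 the values were 7.47, 3.73 and 2.24 CPM and then 13.6, 7.13 and 5.64 CPM. With LNA2 they were 10.9, 5.39 and 6.58 CPM and then 18.9, 7.55 and 6.38 CPM. Only the LNA2 pair of number 4 did not go up, and the basal and stimulated groups overlapped. The log2 fold change was 0.70 ± 0.30 (SE, adjusted p = 0.273) without the block and 0.69 ± 0.10 (adjusted p = 6.35e-05) with it. By number it was 0.74, 0.69 and 0.62, and without number 2 it was 0.65 (adjusted p = 0.0131). With the block the rise was called under ctrlA (0.64) and LNA1 (0.99) and not under LNA2 (0.43, adjusted p = 0.108). For ctrlA it was lost in the fits without basal ctrlA replicate 2 or 3 or without stimulated ctrlA replicate 2, 3 or 4 (0.57 to 0.69). With the block and number 2 left out both calls were lost, at 0.67 for ctrlA (adjusted p = 0.251) and 1.07 for LNA1 (adjusted p = 0.0507).

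**Figure D2:**
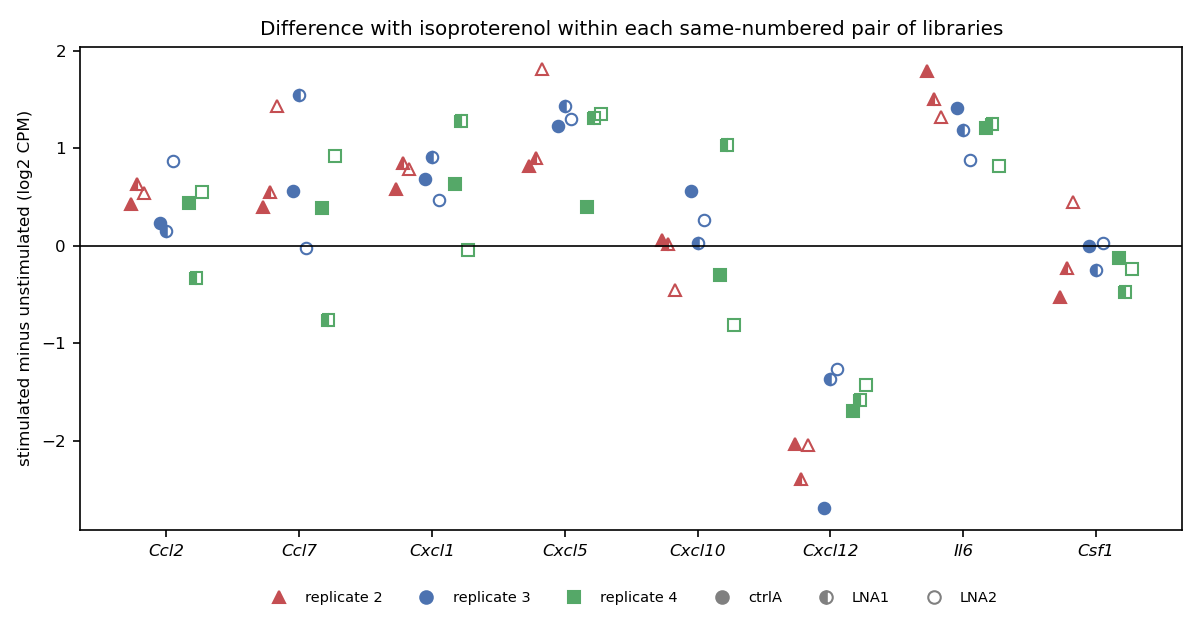
Difference in log2 CPM, stimulated minus basal, within each of the 9 pairs of libraries of the same LNA and replicate number, for the 8 genes that passed the filter, with shape for the number and fill for the LNA. All 9 points lie below 0 for Cxcl12 and above 0 for Il6 and Cxcl5, while those of Cxcl10 and Csf1 lie on both sides.

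Ccl7 and Ccl2 are monocyte attractants that share the receptor Ccr2, and they lie 8.3 kb apart on chromosome 11. Ccl7 (ENSMUSG00000035373.2, chr11:82045712-82047525, plus strand) had 6 to 50 counts per library, from 0.621 to 2.55 CPM at baseline and from 0.477 to 4.75 CPM with isoproterenol. Its log2 fold change was 0.67 ± 0.36 (SE, adjusted p = 0.432) without the block and 0.65 ± 0.21 (adjusted p = 0.031) with it. By number the difference was 0.80, 0.70 and 0.18. This was the least stable of the 5 calls. The call was lost in 9 of the 18 fits that left out a library (basal ctrlA replicate 3, stimulated ctrlA replicate 2 or 3, basal LNA1 replicate 3, stimulated LNA1 replicate 2 or 3, basal LNA2 replicate 2, and stimulated LNA2 replicate 2 or 4), at 0.54 to 0.64, and also without number 2 (0.56, adjusted p = 0.286).

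Ccl2 (ENSMUSG00000035385.5, chr11:82035571-82037453, plus strand) had 17 to 74 counts per library. With ctrlA it read 2.84, 2.17 and 1.39 CPM at baseline and 3.88, 2.57 and 1.94 CPM with isoproterenol. With LNA1 it read 4.16, 1.69 and 1.83 CPM at baseline and 6.57, 1.89 and 1.43 CPM with isoproterenol. With LNA2 it read 4.79, 3.12 and 2.52 CPM at baseline and 7.025, 5.82 and 3.77 CPM with isoproterenol. Each LNA2 library was above the ctrlA and the LNA1 library of the same number and state. The log2 difference with isoproterenol was 0.47 ± 0.31 (SE, adjusted p = 0.585) without the block and 0.45 ± 0.16 (adjusted p = 0.0451) with it, which is below the size needed for a call. Without the block, leaving out 1 library moved it from 0.15 (stimulated LNA1 replicate 2 out) to 0.65.

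Cxcl10 (ENSMUSG00000034855.13, chr5:92346638-92348889, minus strand) ranged from 0.866 to 4.21 CPM at baseline and from 0.769 to 3.28 CPM with isoproterenol. Its log2 difference was -0.01 ± 0.32 (SE, adjusted p = 0.999) without the block and 0.04 ± 0.22 (adjusted p = 0.922) with it. Its exons overlap those of Art3 on the opposite strand, and the use of strand in the counting is not given in the sources used here, so these reads are uncertain. Csf1 (ENSMUSG00000014599.10, chr3:107741048-107760469, minus strand) varied little, from 18.6 to 24.75 CPM at baseline and from 14.2 to 25.4 CPM with isoproterenol. The difference for Csf1 was -0.13 ± 0.12 (SE, adjusted p = 0.731) without the block and -0.14 ± 0.08 (adjusted p = 0.211) with it.

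Ccl5 (ENSMUSG00000035042.2, chr11:83525778-83530518, minus strand), a T cell attractant, was read at 0 to 6 counts per library and at no more than 0.420 CPM. Over the 4 differences tested by exact permutation of the libraries (two-sided), raw p values were 0.751 for isoproterenol, 0.35 for LNA1, 0.105 for LNA2 and 0.64 between the 2 LNAs. The adjusted values were 0.42 to 0.751, or 0.5 to 0.812 with same-number pairs kept together, and any difference was not detectable at this depth. Cxcl14 (ENSMUSG00000021508.11, chr13:56288643-56296551, minus strand), a chemokine known as a product of brown fat, had 0 counts in all 18 libraries. With 230847995 counts in total, that allows a level of up to 0.0131 CPM.

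The question behind the LNA comparisons was what loss of Gm15551 changes, and these comparisons share the 6 ctrlA libraries. With LNA1, 0 of 8 genes were called, without the block (0.442% of all genes called) or with it (2.43%), and 0 had an unadjusted p under 0.05 (6.01% of all genes). DESeq2 also called 0 (0.890% of all genes). Il6 was the only one of the 8 that was higher in 6 of 6 same-number pairs, with a log2 difference of 0.83 ± 0.51 (SE, adjusted p = 1) without the block and 0.72 ± 0.29 (adjusted p = 0.152) with it. The same direction in all pairs was seen for 20% of all genes. By number the Il6 difference was 1.34, 0.28 and 0.09, so it was largest in number 2. The other 7 log2 differences lay between -0.37 (Ccl7) and 0.43 (Cxcl10).

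With LNA2, Ccl2 was the only 1 of the 8 genes with the same direction in 6 of 6 pairs, and it was higher. That share is not above the 22% of all genes with 1 direction in all pairs. Without the block 0 of 8 genes were called (1.42% of all genes), 1 had an unadjusted p under 0.05 (10.6%) and DESeq2 called 0 (2.26%). With the block 1 of 8 was called (5.53% of all genes, 3.77% higher). The log2 difference of Ccl2 was 0.83 ± 0.37 (SE, adjusted p = 0.429) without the block and 0.86 ± 0.19 (adjusted p = 0.00432) with it. By number it was 0.78, 0.81 and 0.85, and without number 2 it was 0.89 (adjusted p = 0.0386). Cxcl1 was higher in 5 of 6 pairs, at 0.42 ± 0.37 (SE, adjusted p = 0.856) without the block and 0.41 ± 0.12 (adjusted p = 0.0193) with it, below the size needed for a call. Without the block, leaving out 1 library moved the Cxcl1 difference from 0.10 (stimulated LNA2 replicate 2 out) to 0.65. The 6 others lay between -0.25 (Cxcl12) and 0.46 (Il6). Among stimulated libraries alone, where 5.51% of all genes were called with the block (0.207% without it), LNA2 against ctrlA called Ccl2 (1.01) and Cxcl5 (0.74). Among basal libraries alone, with 2.79% of all genes called with the block (0.194% without it), neither was called, at 0.72 for Ccl2 (adjusted p = 0.164) and 0.03 for Cxcl5 (adjusted p = 0.994). The Ccl2 call was lost without stimulated ctrlA replicate 2 or 3 or stimulated LNA2 replicate 3 (0.83 to 1.07). The Cxcl5 call was lost in 16 of 18 such fits, all but those without basal LNA2 replicate 4 or stimulated LNA2 replicate 3, and also without number 2 (0.60, adjusted p = 0.33).

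Some genes on the macrophage marker list moved with the same comparison, while others on it were near the floor. With LNA2 and the block, where 5.53% of all genes were called, all 3 of the tested macrophage markers rose, of 7 listed. These were Cd68, a lysosomal glycoprotein, at 0.88 (adjusted p = 7.74e-05), Cd14, the endotoxin co-receptor, at 0.57 (adjusted p = 0.0391), and Csf1r, the receptor of Csf1, at 1.71 (adjusted p = 0.00677). Csf1r reached the filter level in 4 of 6 LNA2 libraries and in 0 of 6 with ctrlA and 0 of 6 with LNA1, so it entered the test only through LNA2 and its call could fall only on that side. Without the block none of them was called (adjusted p = 0.057, 0.533 and 0.137). The summed level of the 7 markers was 10.6 to 29.6 CPM with ctrlA and 16.2 to 49.4 CPM with LNA2. Over all libraries Cd68 had 4395 counts, Cd14 718, Csf1r 144, Mrc1 85, Lyz2 39, Itgam 28 and Adgre1 4. Of 4 tested preadipocyte markers 2 rose with LNA2 and the block, Pdgfra by 0.70 (adjusted p = 0.00054) and Ly6a, a surface antigen of progenitor cells, by 0.66 (adjusted p = 0.00549). The other 2, Pdgfrb and Cd34, were not called, and Cd34 was lower with LNA2 in the fit without the block. The part of these markers in the Ccl2 result was not tested. In bulk samples such as these, more or fewer cells of a type and more or less RNA per cell cannot be told apart.

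Set directly against LNA1, LNA2 gave higher Ccl2 and higher Cxcl1 in 6 of 6 pairs each, where 22.3% of all genes had 1 direction in all pairs. Without the block 0 of 8 genes were called (0.923% of all genes), 0 had an unadjusted p under 0.05 (9.20%) and DESeq2 called 0 (1.55%). With the block 2 of 8 were called (4.11%, with 1.65% higher). Ccl2 differed by 0.59 ± 0.37 (SE, adjusted p = 0.778) without the block and 0.70 ± 0.19 (adjusted p = 0.0205) with it. Cxcl1 differed by 0.53 ± 0.37 (SE, adjusted p = 0.833) and 0.54 ± 0.12 (adjusted p = 0.00668). The Ccl2 call was lost without basal or stimulated LNA1 replicate 3, stimulated LNA1 replicate 4 or basal LNA2 replicate 4 (0.59 to 0.67). The Cxcl1 call was lost without basal LNA1 replicate 4, basal LNA2 replicate 4 or stimulated LNA2 replicate 2 (0.46 in each), and without number 2 (0.57, adjusted p = 0.0797). In the same comparison and with the block, 1 of 3 tested macrophage markers and 1 of 4 tested preadipocyte markers were called. Csf1r was higher by 2.06 (adjusted p = 0.00496, on the side through which it entered the test) and Ly6a by 0.51 (adjusted p = 0.0307). Their part in the Ccl2 and Cxcl1 results was not tested.

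**Figure D3:**
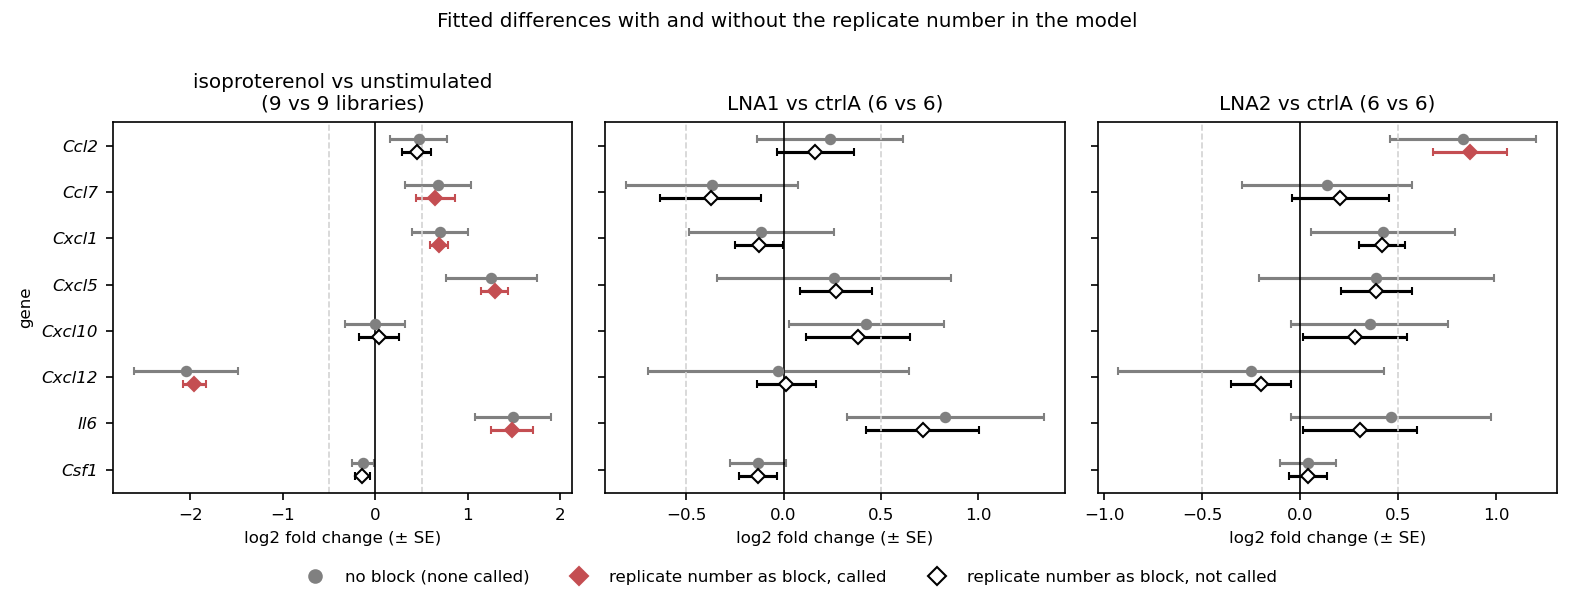
Log2 fold change with its SE for the 8 genes tested, for isoproterenol and for LNA1 and LNA2 against ctrlA, without the replicate number (circles) and with it as a block (diamonds, filled where called), and dashed lines at 0.5 either way. The estimates of both models lie close together, while the error bars with the block are shorter, as for Cxcl12 with isoproterenol (0.56 and 0.12).

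Whether the isoproterenol effect differed between LNAs was tested as an interaction. The number of calls was 0 of 14949 genes for either LNA, with or without the block. Without it 105 (0.702%) and 116 (0.776%) had an unadjusted p below 0.05. That fit leaves the spread between replicate numbers in its error, so these small shares do not show that the effects were alike. DESeq2 called 0 and 2 genes, and 4 and 2 with the block. For the 8 genes the interaction ranged from -0.25 (Il6) to 0.33 (Cxcl1) for LNA1 and from -0.46 (Il6) to 0.87 (Cxcl5) for LNA2, with SE from 0.28 to 1.36. The calls under 1 LNA and not under another, given above, are therefore not shown to differ. In the joint test of all 6 groups at an adjusted p under 0.001, 0 of 8 genes passed without the block (0.455% of all genes). With it, Cxcl12 (adjusted p = 4.83e-07), Cxcl5 (0.000108) and Cxcl1 (0.000349) passed, against 8.93% of all genes.

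Markers of cell types were read for isoproterenol without the block, where 3.20% of all genes were called. Of 6 brown adipocyte markers 5 were tested and 3 rose, with Ucp1, the uncoupling protein, at 3.51 on the log2 scale (adjusted p = 1.12e-08). Prdm16 (-0.19) and Elovl3 (0.36) were not called, and Dio2 did not pass the filter. Of 6 adipocyte markers 1 fell, Adiponectin (Adipoq), from 617 ± 102 to 379 ± 84.3 CPM (SD, n = 9). Of 4 tested preadipocyte markers 1 rose, Ly6a, at 1.58 (adjusted p = 0.0415). The median log2 fold change over the 4 was -0.10, so the list did not share this rise. The summed preadipocyte level was 41.2 to 57.0 CPM at baseline and 42.7 to 88.6 CPM with isoproterenol. Of 3 tested macrophage markers 2 rose, Cd68 by 0.90 (adjusted p = 0.00618) and Cd14 by 1.28 (adjusted p = 0.00398), and the summed macrophage level was 10.6 to 31.2 CPM at baseline and 15.1 to 49.4 CPM with isoproterenol. The summed level of the leukocyte list was 0.140 to 1.53 and 0.228 to 1.74 CPM, and that of the 5 endothelial markers, of which 0 of 2 tested were called, was 2.38 to 4.16 and 2.18 to 4.26 CPM. The part of these markers in the rise of Il6, Cxcl5, Cxcl1 and Ccl7 or the fall of Cxcl12 was not tested. With each LNA, 1 of the 4 tested preadipocyte markers was called without the block (0.442% of all genes for LNA1, 1.42% for LNA2). This was Pdgfra, a growth factor receptor, which rose by 0.89 with LNA1 (adjusted p = 0.00743) and by 0.71 with LNA2 (adjusted p = 0.0121). Pdgfrb, Ly6a and Cd34 were at -0.22, 0.15 and -0.34 with LNA1 and at 0.20, 0.57 and -0.67 with LNA2.

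The spread within groups followed the replicate number. The mean level in number 2 was 4.65 times that in numbers 3 and 4 for Cxcl12, 3.68 times for Cxcl5, 2.77 times for Il6, 2.19 times for Cxcl1, 2.11 times for Ccl7, 1.99 times for Cxcl10 and 1.94 times for Ccl2. Csf1 was at 0.906 times. Number 2 was the highest of the 3 libraries in 6 of 6 groups for Ccl2, Cxcl1, Cxcl5 and Cxcl12, and in 1 of 6 for Csf1. Csf1 therefore had the ratio nearest to 1 of the 8 genes tested. What the number marks is not given, and the part of the rRNA and mitochondrial share in these levels was not tested.

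Levels of different genes were compared as CPM per kilobase of exon. Cxcl1 (4.06 ± 2.18, SD over 18 libraries) and Csf1 (3.91 ± 0.638) were the highest, and their order changed with the library, with Cxcl1 above Csf1 in 6 of 6 libraries of number 2 and in 2 of 12 of numbers 3 and 4. With ctrlA the mean of Cxcl1 was 2.90 at baseline and 4.5 with isoproterenol, and that of Csf1 was 4.25 and 3.73. Ccl2 (2.90 ± 1.55) lay below Csf1 in 12 of 18 libraries, and Ccl7 (2.33 ± 1.33) lay below Ccl2 in 14. Ccl7 exceeded Cxcl5 in 17 of 18 libraries. Cxcl5 (1.28 ± 1.19), Cxcl12 (0.900 ± 1.04), Cxcl10 (0.865 ± 0.416) and Il6 (0.657 ± 0.581) followed, in an order that turned with stimulation. Cxcl12 was above Cxcl5 in 9 of 9 basal libraries and below it in 9 of 9 stimulated ones. Cxcl12 was also above Cxcl10 in 6 of 9 basal and 0 of 9 stimulated libraries, and Cxcl10 was above Il6 in 9 of 9 basal and 3 of 9 stimulated libraries. Il6 was above Ccl5 (0.129 ± 0.144) in 16 of 18 libraries, and Cxcl14 was at 0.

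**Figure D4:**
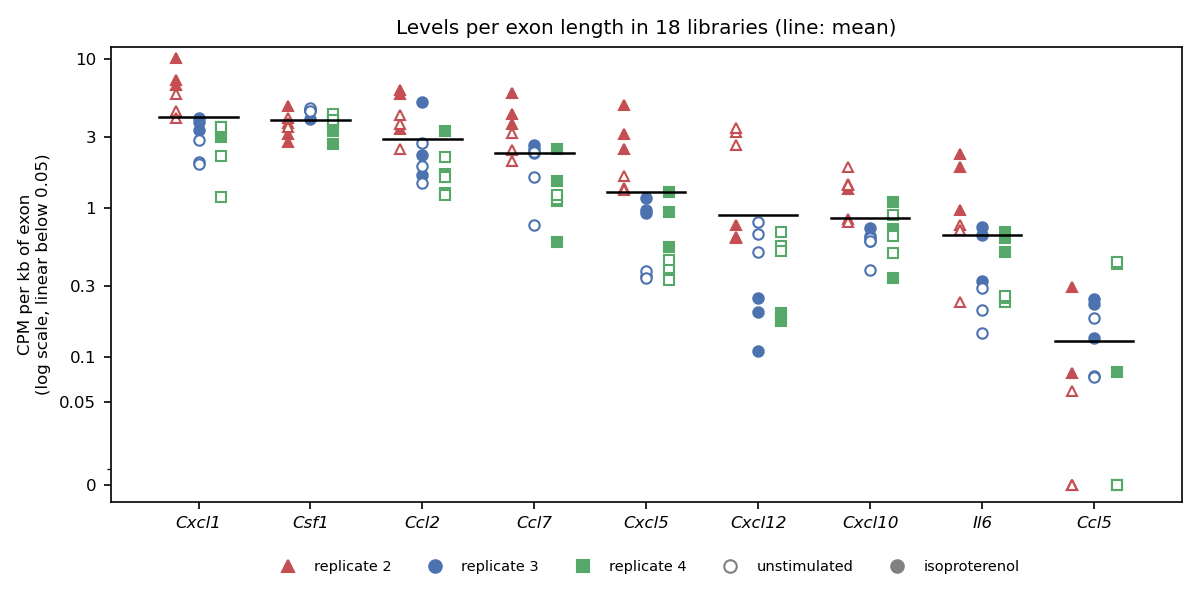
CPM per kilobase of exon for the 9 genes with any count, in the 18 libraries, on a log axis that is linear below 0.05, with shape for the replicate number, filled markers for isoproterenol and a line for the mean. Cxcl1 and Csf1 lead with means of 4.06 and 3.91, the points of Csf1 are the most tightly packed, and Ccl5 is the lowest at 0.129.

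The genes whose centred log2 CPM profile over the 18 libraries was nearest to each of the 8 were found by the root mean square difference. For Cxcl12 these were Mgp (0.519), Aspn (0.533) and Ogn (0.570), against a median of 1.39 over all genes tested. The nearest to Il6 were Id2 (0.403), Far1 (0.413) and Gm47128 (0.419), against 1.02. For Cxcl5 they were Tm4sf1 (0.393), Fgl1 (0.409) and Rnase4 (0.430), against 1.11. For Cxcl1 they were Rnf128 (0.253), Akr1b3 (0.289) and BC028528 (0.291), against 0.790, and for Ccl2 they were Nqo1 (0.324), Layn (0.331) and Rdh12 (0.332), against 0.777. Those of Ccl7 were Gm4864, Gm47398 and Fstl1 (0.373 to 0.429), those of Cxcl10 were 5033421B08Rik, Iftap and Rwdd2a (0.313 to 0.368), and those of Csf1 were Cnot9, Parp12 and Pfkfb2 (0.163 to 0.172). No member was among the 3 nearest genes of another.

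AU-rich elements in the 3′ UTR are known to shorten the life of cytokine mRNAs, and the pentamer ATTTA was counted in the longest annotated 3′ UTR of each gene. Cxcl1 held 7 copies (11.8 per kilobase, higher than 99.3% of 21024 protein-coding genes), Il6 held 10 (6.0 per kilobase, 95.2%), Ccl7 held 2 (4.60, 90.8%) and Cxcl5 held 5 (4.5, 90.3%). These 4 densities exceeded those of Ccl2 (3.64), Cxcl10 (3.01), Csf1 (1.89) and Cxcl12 (0.771), where the median gene had 1.24. Ccl5 and Cxcl14 held 0. The longer form TATTTAT was present in 5 of the 10 genes (Cxcl1, Cxcl5, Il6, Cxcl12 and Csf1) and in 27.6% of all. It was present in 2 or more copies in 10% of the members and in 10.4% of all. These are counts of letters in a sequence, and mRNA stability was not measured.

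Of 17 other chemokines 4 passed the filter, and 0 were called with isoproterenol without the block (3.20% of all genes) and 1 with it (7.00%). Cxcl13, the B cell attractant, went from 0.847 ± 0.622 to 2.10 ± 2.05 CPM (SD, n = 9), which is 1.27 ± 0.61 on the log2 scale (SE, adjusted p = 0.358) without the block and 1.19 (adjusted p = 0.00227) with it. Of 19 other cytokines 6 passed. Il34, which like Csf1 is a ligand of Csf1r, rose from 2.48 ± 0.260 to 4.495 ± 0.771 CPM, by 0.85 ± 0.12 (SE, adjusted p = 0.000665). Il1rn, the natural antagonist of the interleukin-1 receptor, fell with the block only (-0.67, adjusted p = 4.6e-06, against -0.68 ± 0.55, adjusted p = 0.702, without it). With the LNAs and the block, Il1rn was lower with LNA2 (-0.54, adjusted p = 0.000638) and Ccl9 with LNA1 (-0.50, adjusted p = 0.0402). Neither was called without the block. In those fits 5.53% and 2.43% of all genes were called with the block. The classical inducers of these genes were close to the floor, with 1 count of Il1b and 2 counts of Tnf in all libraries (named after their values were seen).

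Of 13 receptors of the members 6 passed and 1 was called with isoproterenol (3.20% of all genes). Ackr3, the scavenger of Cxcl12, had 5 counts over the 9 basal libraries and 137 over the 9 stimulated ones. Its level was 0.0450 ± 0.0619 CPM at baseline and 1.24 ± 1.29 CPM with isoproterenol (SD, n = 9). It passed the filter only through the stimulated libraries, so its call (adjusted p = 0.00208, fitted log2 change 4.44) had to be in this direction and its fitted size rests on 5 basal counts. Csf1r was called with LNA2 with the block only, as given above, and was at 0.379 CPM with ctrlA, 0.270 with LNA1 and 1.24 with LNA2. The receptors of several chemokines were near 0 in these cells (named after their values were seen). There were 3 counts of Cxcr4, 2 of Cxcr3, 17 of Ccr2 and 0 of the non-signalling scavenger Ackr1 in all 18 libraries. Cxcr2, the receptor of Cxcl1 and Cxcl5, passed the filter with 258 counts and was not called with isoproterenol. The Il6 receptor subunits Il6ra and Il6st had 7668 and 32536 counts.

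All 25 listed regulators known to control the members passed the filter. With isoproterenol 1 of 25 was called without the block (3.20% of all genes) and 3 of 25 with it (7.00%), all higher. Nr4a1, an immediate early nuclear receptor, rose from 5.76 ± 1.72 to 24.0 ± 7.53 CPM (SD, n = 9), by 2.06 ± 0.19 (SE, adjusted p = 7.91e-06). Cebpb and Cebpd, the C/EBP factors known to act on Il6, were called with the block at 0.62 (adjusted p = 1.88e-05) and 0.56 (adjusted p = 5.05e-05). Without it they were at 0.59 ± 0.20 (SE, adjusted p = 0.129) and 0.58 ± 0.19 (adjusted p = 0.102). With the LNAs 0 of 25 were called, with or without the block, in LNA1, LNA2 or between them. The median over the 25 with isoproterenol was 0.12, beside 0.00 over all genes tested.

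**Figure D5:**
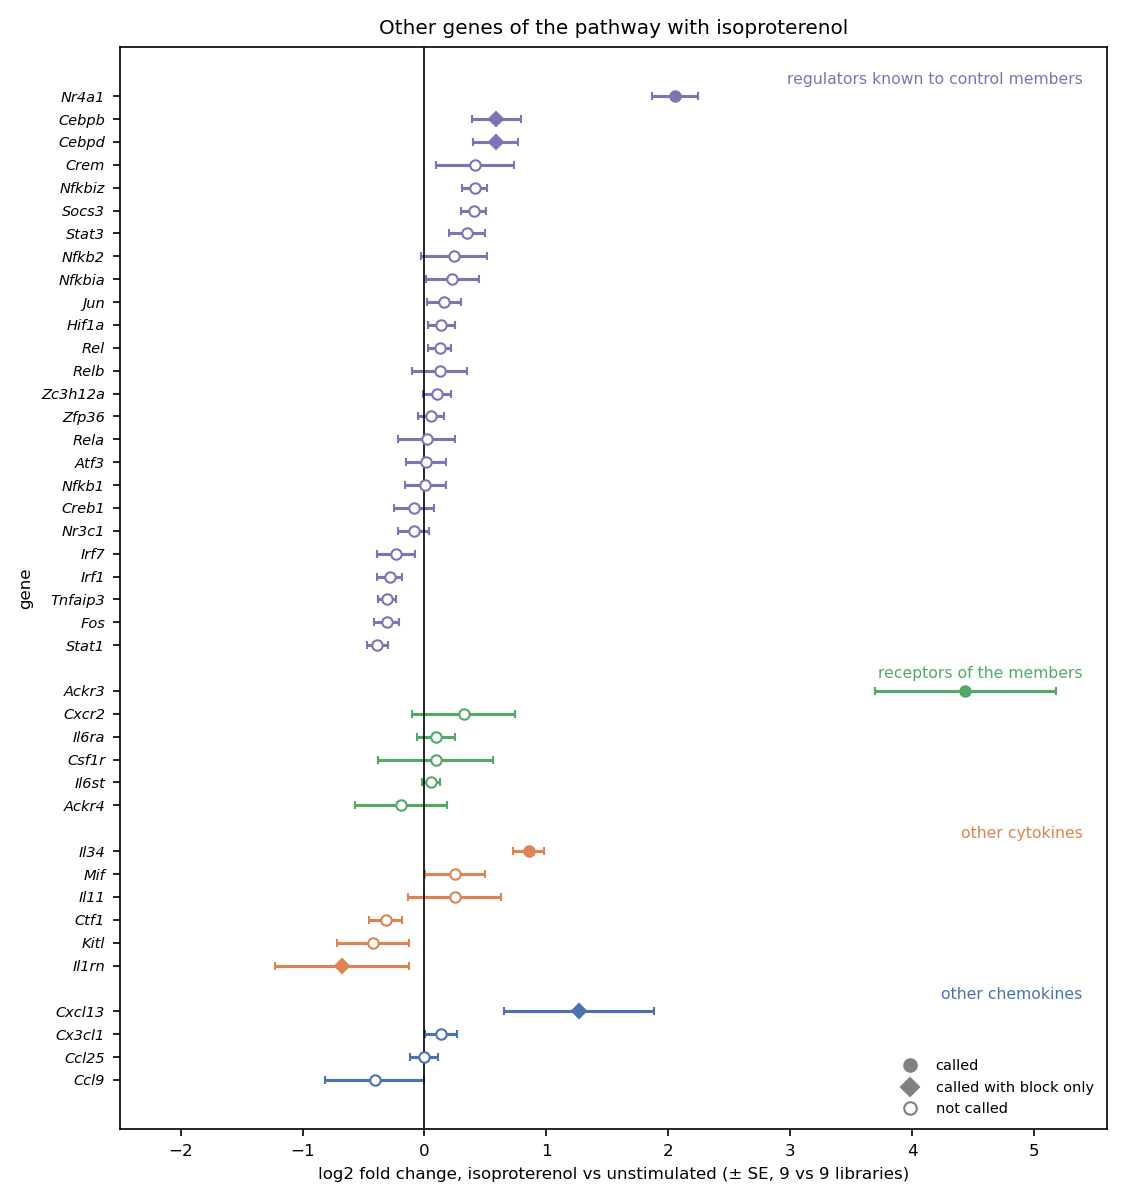
Log2 fold change with isoproterenol (9 against 9 libraries, bars for the SE, no block) for the tested genes of 4 lists, with filled circles for calls, diamonds for calls made only with the replicate block and open circles for the rest. Ackr3 (4.44) and Nr4a1 (2.06) lie far to the right, and most of the 25 regulators lie near 0.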

How the data were processed

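RNA was sequenced from 18 libraries of wt1-SAM brown adipocytes. Per the labels and the study's methods, reads were filtered with cutadapt and the authors quantified them with salmon on the Gencode M22 transcriptome (GRCm38), and the submitters' processing notes also list bcl2fastq and DESeq2, with versions not given in the sources used here. The deposited table holds expected counts per gene, and all values were already whole (0 were not), so none needed rounding. Totals of 9167560 to 19723021 counts per library set the precision of low genes.

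Groups were taken from the LNA, treatment and replicate labels. Counts were fitted with edgeR 4.0.16 (quasi-likelihood test, TMM scaling, filterByExpr at its minimum count of 10 and total of 15) in R 4.3.3, with 1 term per group over all 18 libraries and Benjamini-Hochberg adjustment over 14949 genes. Isoproterenol effects were averaged over the LNAs and LNA effects over both states. CPM used effective library sizes. Genes below the filter were tested by exact permutation, and also by sign flips of same-number pairs (added after seeing the data). All 10 members were named, other genes only where called in an averaged contrast or where said, and the 3 nearest profiles per gene. The members and lists were chosen with earlier results of these data known.

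The replicate number was fitted as a block as an alternative. Deviations from the group means correlated in 45 of 45 same-number pairs of libraries (0.24 to 0.722), so the numbers were taken to pair the samples. For different numbers the median was -0.436 (-0.596 to 0.404, over 0.1 in 29 of 90 pairs). Deviations cancel out within a group, so negative values follow in part from the agreement within numbers and are not separate support. Within groups, numbers 3 and 4 were closer to each other (chi-square per degree of freedom 4.32 to 36.5) than to number 2 (81.1 to 177). The labels do not say what they mark. No pair of libraries in a group was identical. Other alternatives were RLE scaling, DESeq2 1.42.0, no filter, leaving out the rRNA and mitochondrial genes, number 2 or each library in turn. Gene positions came from GENCODE M21 (GRCm38), promoters from RefSeq, and oligonucleotide sequences from the study's supplement.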

Additional observations from a re-analysis of the deposited data

How the results depend on the processing

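Without the replicate block no member was called in any comparison. With the block the count was 5 for isoproterenol, 1 for LNA2, 2 for LNA2 against LNA1, 4 for isoproterenol within ctrlA, 4 within LNA1, 2 within LNA2 and 2 for LNA2 among stimulated libraries, and 3 for the joint test of all groups (Cxcl1, Cxcl5 and Cxcl12), and it changed no other call of a member. DESeq2 called 2 for isoproterenol, and DESeq2 with the replicate block called 5, 1, 2, 3, 4, 2 and 1 for the comparisons before the joint test (991, 732, 574, 600, 725, 614 and 757 of all genes). Without the filter on low counts 2 were called for isoproterenol (461 of all genes), and with the rRNA and mitochondrial genes left out 1 (483). With the 6 libraries of number 2 left out, 4 were called for isoproterenol, 1 each for LNA2, for LNA2 against LNA1 and for isoproterenol within each LNA. Over all genes this setting called 726 for isoproterenol, 180 for LNA1, 738 for LNA2, 443 for LNA2 against LNA1, and 197, 324 and 199 for isoproterenol within ctrlA, LNA1 and LNA2. Block and number 2 out together (chosen after seeing the data) gave 1 each for isoproterenol within ctrlA, LNA1 and LNA2 (Cxcl12 in each, beside 319, 446 and 291 of all genes), for LNA2 against LNA1 (Ccl2, 516) and for LNA2 among stimulated libraries (Ccl2, 611). Leaving out each library in turn gave 0 to 1 for isoproterenol (394 to 477 of all genes), and with the replicate block 4 to 6 (962 to 1161), 0 to 2 for LNA2 against LNA1 (462 to 722), 1 to 4 within ctrlA (474 to 705), 3 to 4 within LNA1 (617 to 880), 2 to 3 within LNA2 (406 to 1051) and 0 to 2 for LNA2 among stimulated libraries (413 to 1350). RLE scaling changed no count of members.

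Several differences changed sign, among them Cxcl5 for LNA2 among stimulated libraries (0.82), and the cause was not tested. Cxcl10 with isoproterenol was at 0.037 with the replicate block, 0.0028 with RLE, 0.0050 with DESeq2, 0.048 with DESeq2 and block, 0.0055 without rRNA and mitochondrial genes, 0.13 without number 2 and -0.19 to 0.24 without single libraries. Cxcl12 with LNA1 was at 0.013 with the block, 0.0078 with DESeq2 and block, 0.14 without number 2 and -0.70 to 0.60 without single libraries. Without number 2, Ccl2 with LNA1 was at -0.21, and Cxcl10, Il6 and Csf1 with LNA2 were at -0.13, -0.35 and -0.063. Without single libraries, LNA1 ranged over -0.25 to 0.42 for Ccl2, -0.41 to 0.11 for Cxcl1 and -0.32 to 0.73 for Cxcl5. LNA2 ranged over -0.13 to 0.41 for Ccl7, -0.14 to 0.86 for Cxcl5, -0.87 to 0.37 for Cxcl12, -0.079 to 0.66 for Il6 and -0.041 to 0.12 for Csf1, and over -0.23 to 1.65 for Cxcl5 among stimulated libraries. Over all genes, calls for isoproterenol, LNA1, LNA2 and LNA2 against LNA1 numbered 479, 66, 213 and 138 without the block, 1046, 364, 826 and 615 with it, and 629, 133, 338 and 232 with DESeq2. Without the block, leaving out 1 library gave 32 to 82 for LNA1, 113 to 262 for LNA2 and 73 to 153 for LNA2 against LNA1. For LNA2 it gave 0 to 55 among stimulated libraries (31 with all kept) and 1 to 32 among basal ones (29 with all kept). For isoproterenol it gave 43 to 81 within ctrlA, 49 to 107 within LNA1 and 23 to 66 within LNA2. Counts of 5 to 63 for Il6 and 0 to 6 for Ccl5 per library limit what could be seen of these genes.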
